A study of Mus musculus with 33 samples.

Results

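The gene set described here holds 35 named mouse genes of glycolysis and of the response to low oxygen, 35 of the 32285 genes in the count matrices. The members were taken by name: 3 membrane transporters of glucose and lactate, 10 enzymes of the upper pathway from glucose to triose phosphates, 7 enzymes of the lower steps to lactate, 4 oxygen-sensing genes and 11 targets of hypoxia signalling. The rule that lists them uses no measured value. Aldoa was listed under 2 gene identifiers. The one with 201904 UMIs in kept cells was used, and the other, with 16 UMIs, was left out.

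Single-cell RNA-seq was made from mouse tissues after overnight labelling of metastatic niches with biotin (SAMENT, a method in which tumour cells tag the cells around them), and cells were sorted into biotin-positive and biotin-negative fractions. With intracardiac injection there were 32 samples, 4 biotin-negative and 4 biotin-positive ones from each of lung, liver, brain and bone, sequenced from the 3' end. After the injection labelled IIA, bone gave 6 biotin-negative and 6 biotin-positive samples, pooled under hashtags in 1 library and sequenced from the 5' end. The controls of every comparison are therefore unlabelled cells of animals that had been injected too. The labels give no tumour line, strain, age or animal, so p-values measure the spread between samples, which may be technical. No uninjected animals were analysed here.

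Glycolysis converts glucose to pyruvate and yields ATP without oxygen, and lactate dehydrogenase then turns pyruvate into lactate for export. When oxygen is low, the prolyl hydroxylases encoded by Egln1 and Egln3 stop marking the HIF alpha subunits for destruction, and HIF raises the transcription of most glycolytic enzymes and of genes such as Bnip3, Adm and P4ha1. Neutrophils have few mitochondria and draw their ATP mainly from glycolysis, while activated macrophages also raise it.

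After filters, 55366 cells of the intracardiac samples and 22362 hashtagged cells of the IIA pool remained. Kept UMIs (unique molecules) per sample ran from 482617 to 44834665 in the intracardiac series and from 2149784 to 27903856 in the IIA series, so precision differs widely between samples. Values are CPM, the UMIs of a gene scaled to a fixed total, over all kept cells, or over the cells of a class, of 1 sample. In sums over all cells, fewer cells of a type and less RNA per cell cannot be told apart. Cells were clustered with the 35 members left out of the variable genes, and a class name such as mature neutrophil stands for cells like that type by marker genes. The rarest member was Adm, with 793 UMIs over the intracardiac samples, and the most abundant was Gapdh, with 523292. Microglia with at least 20 cells were found in biotin-positive brain samples alone, and no cluster was named tumour or epithelial from its markers. Samples with different replicate numbers shared 341 cell barcodes, and those with the same number shared 0. In each of the 4 replicate numbers, the 8 samples also list 1 common panel of multiplexing tags. Numbers 3 and 4 list the same panel, so the panels do not tell these apart. From barcodes and panels, a number was treated as a pool of 8 samples handled together. Fits with it as a block are given beside the results where they change the number of calls. These blocked fits use edgeR's quasi-likelihood test and the same threshold.

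Levels by cell class were described with no test. In the intracardiac samples, 18 groups of cells were compared by their median over samples with at least 20 cells: 14 marker-based groups, of which cluster 20, led by Clu, Cpa3 and Gata2, is given by number, and the unnamed clusters 5 (led by the proliferation genes Top2a and Mki67), 19, 22 (immunoglobulin genes) and 23 (Gzma, Ccl5 and Nkg7). Cluster 19, 1604 cells from 16 samples and led by Arg1, Pf4, Ppbp and Spp1 (an arginase, 2 platelet chemokines and osteopontin), held the highest median of 16 of the 35 members. Endothelial cells held 6, mature neutrophils 3 and microglia 3. Alveolar macrophages and granulocyte precursors held 2 each, and T cells, cluster 23 and immature neutrophils 1 each.

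**Figure D1:**
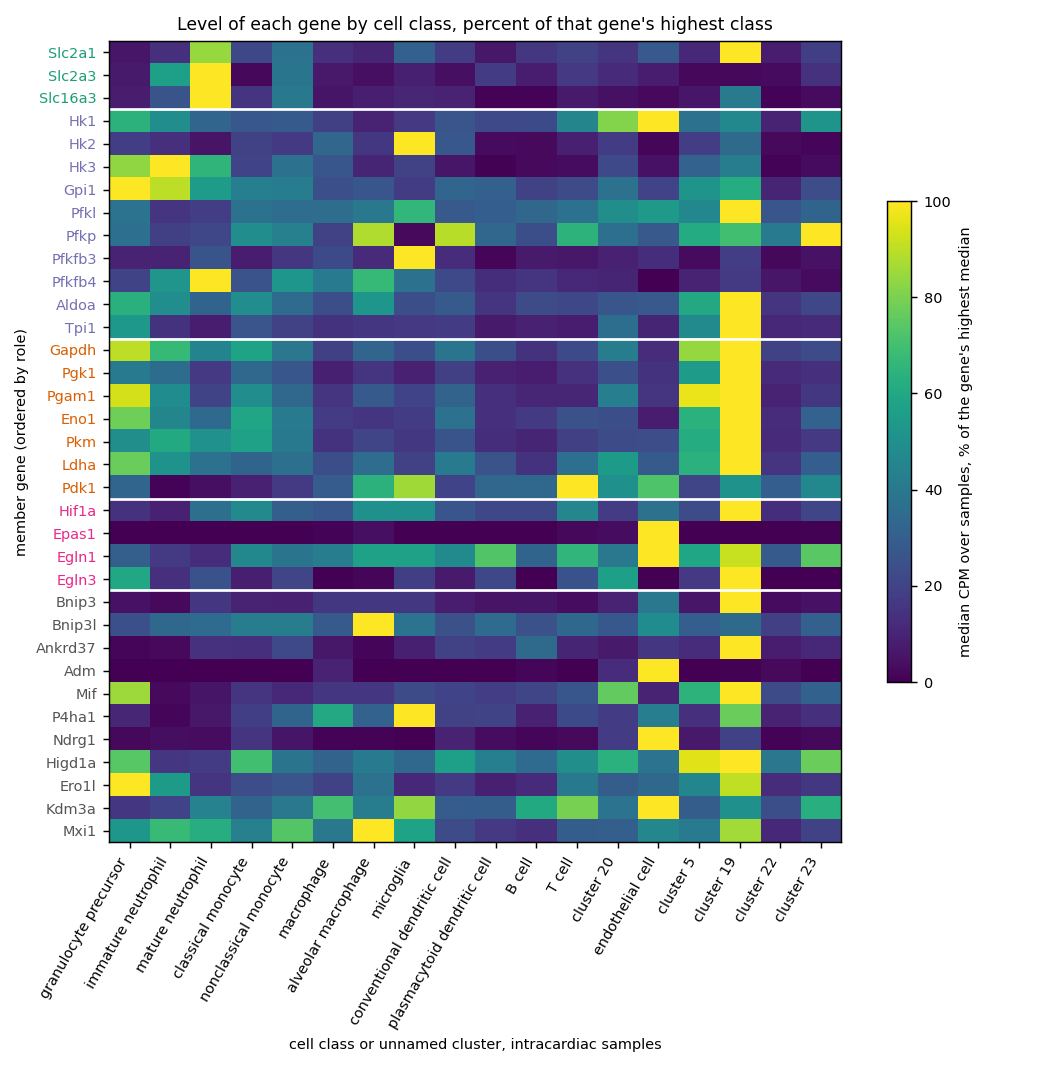
Heat map of the 35 members (rows) over 18 groups of cells (columns) of the intracardiac samples. Colour gives each gene's median CPM as a percent of its own highest group, so rows compare cell groups and never genes. Cluster 19 is at 100% for 16 genes.

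Among the transporters, Slc2a3 (the glucose importer GLUT3) ranged from 4.89 CPM in cluster 5 to 248 CPM in mature neutrophils, where the 32 samples ran from 141 to 461. Slc16a3, the lactate exporter MCT4, ranged from 3.49 CPM in cluster 22 to 409.6 CPM in mature neutrophils (219 to 817 over 32 samples). Both were thus highest in mature neutrophils. Slc2a1 (the glucose importer GLUT1) ranged from 5.56 CPM in granulocyte precursors to 89.9 CPM in cluster 19, with single samples of cluster 19 from 36.6 to 299. The class median of Slc2a1 hides a difference between vessels of different organs. Endothelial cells of 2 biotin-positive brain samples (59 cells in all) held 2874 and 3665 CPM of Slc2a1, against at most 31.9 CPM in 6 liver samples and 8.24 CPM in the single lung sample with at least 20 endothelial cells. GLUT1 is a known marker of the blood-brain barrier.

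Among the upper enzymes, the 3 hexokinases, which trap glucose by phosphorylation, were highest in different cells. Hk1 ranged from 6.33 CPM in alveolar macrophages to 67.3 CPM in endothelial cells. Hk2 ranged from 4.40 CPM in cluster 23 to 308 CPM in microglia, where the 3 samples ran from 248 to 343. Hk3 ranged from 0.778 CPM in plasmacytoid dendritic cells to 112 CPM in immature neutrophils. The highest hexokinase levels thus split between endothelium, microglia and the neutrophil line. Gpi1, the isomerase of glucose phosphate, ranged from 80.1 CPM in cluster 22 to 763 CPM in granulocyte precursors. The phosphofructokinase subunits Pfkl and Pfkp ranged from 10.1 CPM in immature neutrophils to 67.5 CPM in cluster 19 and from 2.77 CPM in microglia to 101 CPM in cluster 23. Pfkfb3 and Pfkfb4 set the level of the sugar phosphate that activates phosphofructokinase. Pfkfb3 ranged from 2.94 CPM in plasmacytoid dendritic cells to 241 CPM in microglia, and Pfkfb4 from 0 CPM in endothelial cells to 88.9 CPM in mature neutrophils. The pair was thus highest in different cells. Aldoa, which splits the phosphorylated sugar, ranged from 129 CPM in plasmacytoid dendritic cells to 866 CPM in cluster 19, and Tpi1, which interconverts its products, from 40.0 CPM in plasmacytoid dendritic cells to 541 CPM in cluster 19.

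Of the 7 lower enzymes, 6 had their highest median in cluster 19. Gapdh, which oxidises glyceraldehyde phosphate, ranged from 287 CPM in endothelial cells to 2232 CPM in cluster 19. Pgk1, the first ATP-yielding kinase of the pathway, ranged from 57.2 CPM in B cells to 712 CPM in cluster 19. Pgam1, the mutase after it, ranged from 57.9 CPM in cluster 22 to 592 CPM in cluster 19. These 3 steps sit next to each other in the pathway. Eno1 (enolase) ranged from 43.0 CPM in endothelial cells to 525 CPM in cluster 19, and Pkm (pyruvate kinase) from 106 CPM in B cells to 1038 CPM in cluster 19. Ldha, which makes lactate, ranged from 108 CPM in B cells to 726 CPM in cluster 19 (344 to 1173 over 16 samples). Pdk1 was the exception among the 7: this kinase, which keeps pyruvate out of the mitochondria, ranged from 0.48 CPM in immature neutrophils to 60.9 CPM in T cells.

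Of the oxygen-sensing genes, Hif1a ranged from 33.8 CPM in immature neutrophils to 371 CPM in cluster 19 and Egln3 from 0 CPM in B cells to 31.7 CPM in cluster 19. Egln1 ranged from 10.4 CPM in mature neutrophils to 82.5 CPM in endothelial cells. Epas1, which encodes HIF-2 alpha, was listed at 0 at the median of B cells and at 478 CPM in endothelial cells, with single samples from 381 to 4380.1. The highest of these was the lung sample. HIF-1 alpha and HIF-2 alpha transcripts thus had their highest levels in different cells.

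Among the hypoxia targets, Bnip3 and Bnip3l encode mitophagy receptors. Bnip3 ranged from 5.10 CPM in immature neutrophils to 189 CPM in cluster 19, with single samples from 34.5 to 438, and Bnip3l from 95.1 CPM in cluster 22 to 503 CPM in alveolar macrophages. Mif, a cytokine, ranged from 23.2 CPM in immature neutrophils to 915 CPM in cluster 19. Ankrd37, an ankyrin-repeat gene, ranged from 0.523 CPM in granulocyte precursors to 39.8 CPM in cluster 19, and Higd1a, a mitochondrial protein gene, from 31.4 CPM in immature neutrophils to 197 CPM in cluster 19. For 4 of these 5 targets cluster 19 was highest, and for Bnip3l it was the alveolar macrophages. P4ha1, a collagen prolyl hydroxylase subunit, ranged from 1.93 CPM in immature neutrophils to 99.2 CPM in microglia. Ero1l, an oxidase that drives disulphide formation in the endoplasmic reticulum, ranged from 10.8 CPM in plasmacytoid dendritic cells to 123 CPM in granulocyte precursors. Mxi1, a Myc antagonist, ranged from 11.4 CPM in cluster 22 to 103 CPM in alveolar macrophages. Adm (the vasodilator peptide adrenomedullin) ranged from 0 CPM in T cells to 33.0 CPM in endothelial cells, Kdm3a (a histone demethylase) from 6.22 CPM in granulocyte precursors to 39.8 CPM in endothelial cells and Ndrg1 from 0 CPM in microglia to 389 CPM in endothelial cells. Endothelial cells were thus highest for these last 3 targets.

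Summed over the 20 transporter and glycolysis genes, the share of a sample's UMIs had a median of 0.877% in cluster 19 (0.484 to 1.496% over 16 samples), 0.6246% in granulocyte precursors, 0.507% in immature neutrophils and 0.417% in mature neutrophils. It was 0.412% in classical monocytes, 0.188% in macrophages and 0.135% in B cells. The 15 oxygen-sensing and hypoxia genes followed another order. Their median share was 0.240% in cluster 19, 0.203% in endothelial cells and 0.130% in granulocyte precursors. It was 0.1273% in cluster 5, 0.1265% in cluster 20 and 0.1204% in alveolar macrophages. Mature neutrophils held 0.0570% and immature neutrophils 0.0453%. Mature and immature neutrophils thus stood above macrophages and B cells for the glycolysis genes. For the hypoxia genes they stood below the groups listed before them, which include the precursors.

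**Figure D2:**
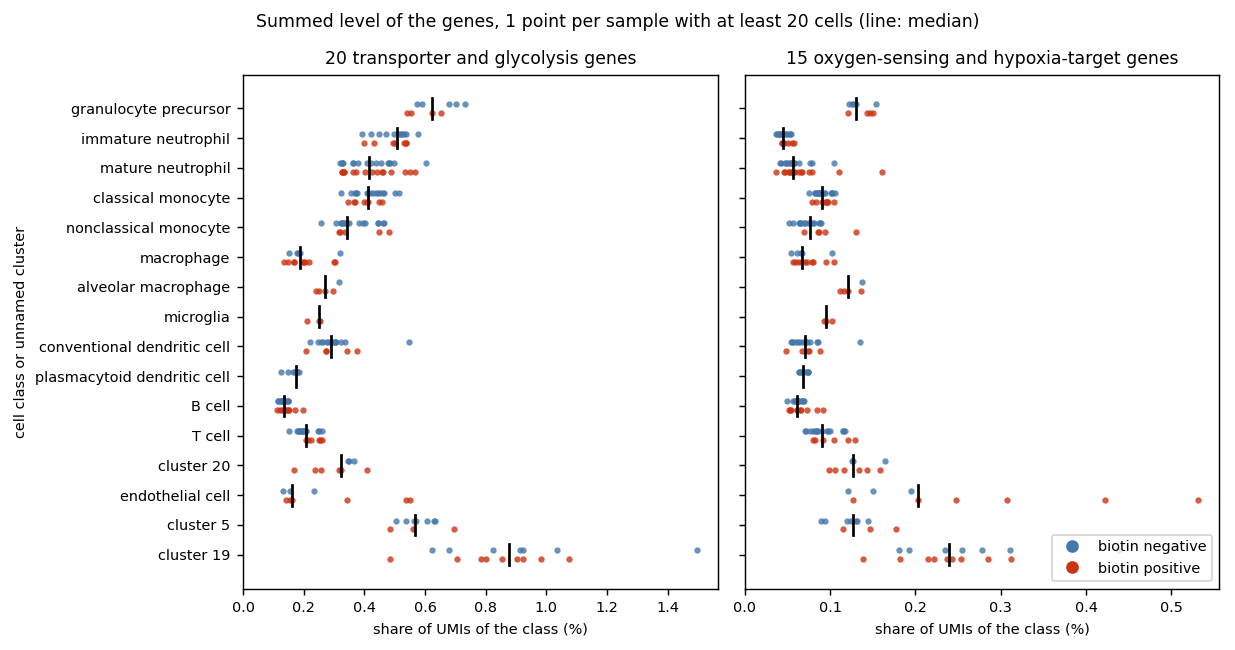
Share of UMIs (percent) in the 20 transporter and glycolysis genes and in the 15 oxygen-sensing and hypoxia genes, for each sample with at least 20 cells of a group. Blue points are biotin-negative and red points biotin-positive samples, and the line is the median. Cluster 19 lies highest in both panels at the median (0.877% and 0.240%).

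In the IIA bone pool, 14 groups of cells were compared in the same way. The macrophage class there held the highest median of 14 members, among them Slc2a1, Bnip3, Ankrd37, Hif1a and Ldha. Slc2a3, Slc16a3 and Pfkfb4 were highest in mature neutrophils, as in the intracardiac samples. Macrophages of the IIA pool held a median glycolysis share of 0.741% and a hypoxia share of 0.265%, over 7 samples.

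The first comparison set biotin-positive against biotin-negative cells of the same tissue. Counts of all kept cells were summed per sample, and edgeR's quasi-likelihood test with Benjamini-Hochberg adjustment was run over all genes of a tissue. A gene was called at an adjusted p under 0.05. P4ha1 in brain was the single member called in the 4 tissues by this test without the block. The sorts also differed in cell mix, given below for bone, brain and lung.

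In bone, 0 of 34 tested members were called, where 0 of 12533 genes were called in all (0.0%). At an unadjusted p under 0.05 there were 3 members (Egln3, Pdk1 and P4ha1), beside 977 of the 12533 genes, and DESeq2 called 0. The lowest adjusted p was 0.62. Slc16a3 was at 84.1, 125, 78.2 and 87.5 CPM in the biotin-negative samples and 143, 114, 44.8 and 108 CPM in the biotin-positive samples. Gpi1 was at 367, 523, 401 and 631 CPM in the biotin-negative samples and 606, 489, 519 and 659 CPM in the biotin-positive samples. Gapdh stood at 1185, 1266, 1313 and 1704 CPM in the biotin-negative samples and 1391, 1204, 1521 and 1826 CPM in the biotin-positive samples. For these 3 genes the sorts overlapped. Hif1a was at 90.2, 93.2, 76.5 and 45.8 CPM in the biotin-negative samples and 86.5, 115, 66.9 and 48.0 CPM in the biotin-positive samples. Mif was at 148, 173, 313 and 189.5 CPM in the biotin-negative samples and 216, 398, 730.3 and 416 CPM in the biotin-positive samples, and both genes overlapped between sorts. The median log2 difference of the 34 members was 0.06, against 0.01 over all genes. Summed over the 15 oxygen-sensing and hypoxia genes, the share of UMIs was 0.0799, 0.0692, 0.0779 and 0.0641% in biotin-negative bone and 0.0876, 0.106, 0.128 and 0.0918% in biotin-positive bone. These shares did not overlap, but without Mif they did, at 0.0651, 0.0519, 0.0466 and 0.0451% in biotin-negative and 0.0660, 0.0666, 0.0545 and 0.0502% in biotin-positive bone. The separation of the sorts was thus not seen without Mif. Within every replicate number, though, the biotin-positive sample had the higher share, with and without Mif, and the higher level of Mif. With the replicate block, 0 of 34 members were called, among 11 of 12533 genes. Shares of the 20 transporter and glycolysis genes overlapped too (0.395 to 0.537% and 0.467 to 0.574%). Macrophages were 0.03 to 0.31% of biotin-negative and 0.69 to 32.1% of biotin-positive bone cells, and granulocyte precursors 2.59% and 7.73% at the median. The part of this cell mix in the Mif difference was not tested.

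In brain, 1 of 34 members was called, where 2.9% of 11064 genes were and 2.72% were higher. P4ha1 was at 12.4, 13.3, 17.2 and 7.88 CPM in the biotin-negative samples and 27.1, 38.3, 48.9 and 49.3 CPM in the biotin-positive samples. Every biotin-positive sample lay above every biotin-negative one, and the log2 difference was 1.41 (SE 0.25, n = 4 and 4, adjusted p = 0.0281, edgeR quasi-likelihood test). The call was lost without biotin-negative replicate 1, 3 or 4 or biotin-positive replicate 3 or 4, with log2 differences from 1.25 to 1.54 over all samples left out in turn. Without biotin-positive replicate 1, 2 members were called, the other being Hk2. DESeq2 called 5 members, adding Epas1 (2.54, adjusted p = 0.0255), Pdk1 (0.95, adjusted p = 0.0362) and Hk2 (0.91, adjusted p = 0.00863) as higher and Higd1a as lower (-0.63, adjusted p = 0.00791). The 2.9% above is edgeR's, and no share of all genes is given here for DESeq2. With the replicate block, where 6.55% of genes were called, Pfkfb3 was called beside P4ha1 (log2 differences 1.03 and 1.41, adjusted p = 0.0217 and 0.0193).

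The other brain members named by the rule did not pass. Slc16a3 was at 64.9, 231, 106 and 149 CPM in the biotin-negative samples and 85.0, 36.4, 134 and 116 CPM in the biotin-positive samples. Gpi1 was at 500.3, 369, 246 and 525 CPM in the biotin-negative samples and 487, 214, 200.3 and 305 CPM in the biotin-positive samples, and Gapdh at 1483, 881, 849.6 and 1461 CPM in the biotin-negative samples and 1350.2, 404, 603 and 864 CPM in the biotin-positive samples. The sorts overlapped for all 3 genes. Hif1a was at 62.8, 160.2, 163 and 77.5 CPM in the biotin-negative samples and 58.7, 88.1, 163 and 119 CPM in the biotin-positive samples. Mif was at 266, 101, 162 and 156 CPM in the biotin-negative samples and 258, 134, 178 and 213 CPM in the biotin-positive samples. They overlapped as well, and 10 of the 34 members had a positive difference (median -0.39, all genes -0.03). Microglia were 13.1% of the cells of biotin-positive brain samples at the median and 0.52% of the others, and macrophages 24.6% and 4.05%. P4ha1 was highest in microglia among the cell groups above, and the part of the cell mix in its difference was not tested.

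In liver, 0 of 35 members were called, among 0 of 11854 genes (0.0%). At an unadjusted p under 0.05 there were 4 members, beside 1569 of the 11854 genes, and DESeq2 called 1, Adm. Its edgeR log2 difference of 3.12 (SE 0.85, n = 4 and 4) had an adjusted p of 0.199. Slc16a3 was at 66.5, 193, 79.6 and 162 CPM in the biotin-negative samples and 85.8, 83.7, 138 and 141 CPM in the biotin-positive samples. Gpi1 was at 399.9, 339.7, 240.3 and 384 CPM in the biotin-negative samples and 339, 259, 293 and 425 CPM in the biotin-positive samples. Both genes overlapped between sorts. Gapdh was at 1166, 1095, 931 and 1236 CPM in the biotin-negative samples and 1100.2, 546, 1076 and 1075 CPM in the biotin-positive samples. Hif1a was at 70.5, 187, 165 and 81.0 CPM in the biotin-negative samples and 84.7, 109, 149.6 and 87.0 CPM in the biotin-positive samples, and Mif at 138, 253, 210.4 and 130.1 CPM in the biotin-negative samples and 222, 240.2, 375 and 80.8 CPM in the biotin-positive samples. These 3 genes overlapped too. The biotin-positive liver samples held 94 to 1221 cells each.

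In lung, 0 of 35 members were called although 18.0% of 12331 genes were. At an unadjusted p under 0.05 there were 4 members (Epas1, Bnip3l, Pdk1 and Hk1), beside 4290 of the 12331 genes, and DESeq2 called 1, Bnip3l. Without biotin-negative replicate 2, biotin-positive replicate 3 or biotin-positive replicate 4, edgeR called 1 member (Bnip3l, Pdk1 and Hk1 in turn). Epas1 came closest, with a log2 difference of 2.92 (SE 0.92, n = 4 and 4, edgeR adjusted p = 0.0586). The replicate block gave 2 called members among 20.7% of genes. Epas1 was at 17.5, 7.90, 5.11 and 1.98 CPM in the biotin-negative samples and 219, 28.9, 17.2 and 31.5 CPM in the biotin-positive samples, a blocked log2 difference of 2.55 (SE 0.48, adjusted p = 0.017). Bnip3l was at 175, 192, 153 and 189.8 CPM in the biotin-negative samples and 319, 508, 287 and 282 CPM in the biotin-positive samples, a blocked difference of 0.69 (SE 0.17, adjusted p = 0.0388). Both genes were higher in the biotin-positive sample of all 4 pairs. Slc16a3 was at 255, 264, 61.8 and 187 CPM in the biotin-negative samples and 126, 53.4, 219.9 and 189.7 CPM in the biotin-positive samples. Gpi1 was at 269, 337, 217 and 342 CPM in the biotin-negative samples and 278, 268, 238 and 375 CPM in the biotin-positive samples. The sorts overlapped for both. Gapdh was at 838, 805, 759 and 1315 CPM in the biotin-negative samples and 1062, 828, 768 and 1569.7 CPM in the biotin-positive samples. Hif1a was at 191, 191, 207 and 158 CPM in the biotin-negative samples and 228, 205, 190.5 and 188 CPM in the biotin-positive samples, and Mif at 177, 113, 181 and 277 CPM in the biotin-negative samples and 279.6, 204, 159 and 444 CPM in the biotin-positive samples. These 3 genes overlapped as well. Alveolar macrophages were 41.4% of biotin-positive lung cells at the median against 0.15% of the others, and cluster 19 was 10.0% against 1.45%. Other glycolysis genes outside the set were called in lung: Pdk4, which inhibits pyruvate dehydrogenase, rose by 6.07 (SE 0.95, adjusted p = 0.00536), and 6 of 21 listed genes were called in all, 5 of them up. Of 22 other hypoxia genes, 6 were called, among them Angptl4 (3.98, adjusted p = 0.00375).

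**Figure D3:**
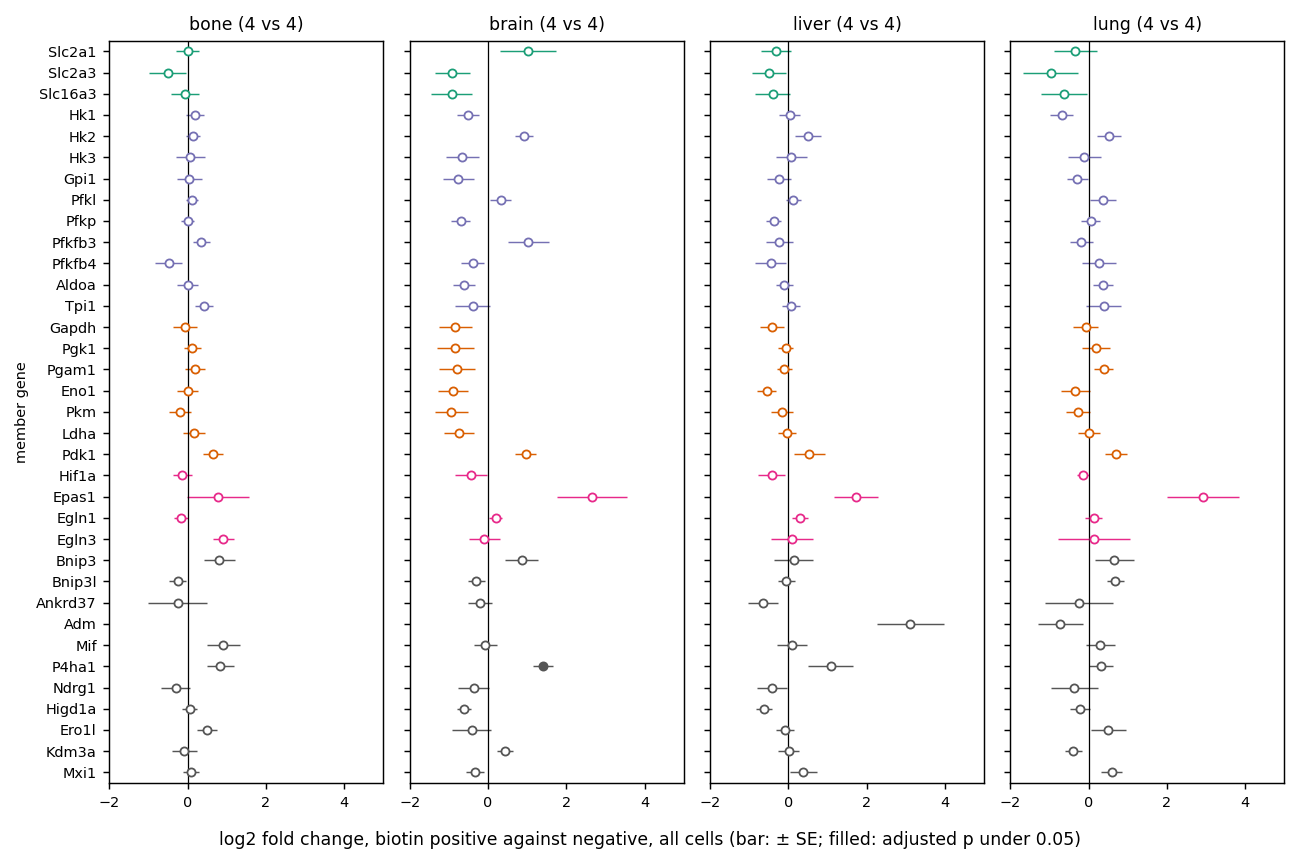
Log2 difference of biotin-positive against biotin-negative samples for the tested members in bone, brain, liver and lung, all cells summed, with the standard error as a bar (4 samples against 4). Filled points passed an adjusted p of 0.05, which is P4ha1 in brain (1.41).

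A difference of the biotin effect between tissues was tested as an interaction over the 32 samples. It called 0 of 35 members, among 1.14% of 13963 genes. At an unadjusted p under 0.05 there were 5 members, beside 1819 of the 13963 genes. DESeq2 called 1, Bnip3l, as did the replicate block (adjusted p = 0.00519, with 4.97% of genes called). Without biotin-positive brain replicate 1, edgeR called 1 member. No member is therefore described as responding in 1 tissue alone.

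Within mature neutrophils, which were present in every sample, biotin-positive and biotin-negative cells were compared in each tissue. The members called were 0 of 32 in lung, 0 of 29 in liver, 0 of 27 in brain and 0 of 31 in bone, with 0.0% of genes called in each (edgeR quasi-likelihood test without the block). At an unadjusted p under 0.05 there were 0, 1, 0 and 0 members, beside 52, 70, 76 and 110 genes in all. DESeq2 called 0 members in each tissue. In lung, 28 of 32 members had a positive difference (median 0.21), against 49.4% of all genes tested. The interaction over tissues called 0 of 32 members, with 0 at an unadjusted p under 0.05 (45 of 6648 genes) and 0 by DESeq2.

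With the replicate block, 8 of 32 members were called in lung neutrophils, all higher in biotin-positive cells, where 1.02% of 6501 genes were called, and 0 in the other tissues. The pairing behind the block was uneven in lung. Over all cells, same-numbered lung sorts correlated from -0.217 to 0.585 over genes, and 2 of 4 correlated best with their own number. Hk2, the hexokinase, was at 14.4, 16.4, 13.2 and 63.0 CPM in the biotin-negative samples and 44.4, 38.3, 18.7 and 137 CPM in the biotin-positive samples, in the order of their numbers. Ero1l was at 41.0, 21.0, 34.4 and 75.5 CPM in the biotin-negative samples and 102, 51.0, 19.5 and 155 CPM in the biotin-positive samples. Mif was at 88.0, 57.2, 50.2 and 208 CPM in the biotin-negative samples and 185, 97.8, 54.8 and 403 CPM in the biotin-positive samples. The sorts overlapped for all 3, while the biotin-positive sample was the higher of its pair in 4 of 4 pairs for Hk2 and Mif and in 3 of 4 for Ero1l. The blocked log2 differences were 1.17 (SE 0.15, adjusted p = 3.33e-08) for Hk2, 1.01 (SE 0.14, adjusted p = 5.8e-06) for Ero1l and 0.86 (SE 0.10, adjusted p = 4.48e-09) for Mif. Egln3 (0.83), Higd1a (0.78), Bnip3 (0.77), Tpi1 (0.71) and Pgam1 (0.43) were the other members called, with adjusted p from 2.74e-05 to 0.0106. Without both lung samples of replicate 4, 2 members were called, Hk2 at 1.33 (adjusted p = 0.00236) and Mif at 0.82 (adjusted p = 0.00209). Leaving out the other pairs gave 6 to 9. Macrophage markers made up 0.0396, 0.104, 0.0354 and 0.0480% of the UMIs of biotin-negative and 0.0487, 0.129, 0.0423 and 0.0593% of those of biotin-positive lung neutrophils, also higher in every pair. Cluster 14 of the class held 24.3% of the biotin-negative cells and 31.4% of the biotin-positive cells, and from 8.29 to 54.6% in single biotin-positive samples. The part of either in the member differences was not tested.

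Biotin-negative neutrophils were then compared across tissues, each tissue's 4 biotin-negative samples against the mean of the other tissues. Lung neutrophils had higher levels of 6 members and a lower level of 1, with 7 of 33 members called against 5.04% of 7379 genes (3.24% higher and 1.8% lower). Bone neutrophils had less Slc2a1, 1 of 33 members called against 2.44% of genes (1.95% lower). In brain and liver 0 of 33 were called (0.0% and 0.163% of genes), with 5 and 3 at an unadjusted p under 0.05 and 0 by DESeq2. Of the 7379 genes, 482 and 377 passed that unadjusted threshold. As the 4 comparisons share samples, they are not independent.

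Egln3 in biotin-negative neutrophils was at 14.4, 8.59, 10.6 and 41.1 CPM in lung, 3.14, 7.30, 1.23 and 6.099 CPM in liver, 4.62, 4.46, 7.05 and 6.96 CPM in brain and 16.6, 12.8, 7.29 and 8.83 CPM in bone. P4ha1 was at 8.13, 5.56, 13.2 and 33.9 CPM in lung, 16.2, 6.01, 6.16 and 5.23 CPM in liver, 8.09, 5.94, 1.17 and 4.47 CPM in brain and 6.46, 2.92, 3.86 and 3.96 CPM in bone. Ero1l was at 41.0, 21.0, 34.4 and 75.5 CPM in lung, 28.8, 16.3, 4.92 and 14.4 CPM in liver, 37.0, 13.7, 12.9 and 13.3 CPM in brain and 36.0, 18.3, 12.01 and 9.75 CPM in bone. In each gene lung replicate 4 stood highest of all 16 samples, and other lung samples overlapped those of at least 1 other tissue. Counts were low: Egln3 had 340 UMIs over the lung samples, 55 over liver, 67 over brain and 128 over bone. P4ha1 had 262, 76, 55 and 50 in the same order. The log2 differences were 1.48 (SE 0.33, adjusted p = 0.0183) for Egln3, 1.44 (SE 0.39, adjusted p = 0.041) for P4ha1 and 1.30 (SE 0.34, adjusted p = 0.039) for Ero1l, by edgeR's quasi-likelihood test with 4 samples a tissue. Bnip3 was higher by 1.16 (SE 0.30, adjusted p = 0.0362), Mif by 1.09 (SE 0.27, adjusted p = 0.0284) and Pfkp by 0.85 (SE 0.20, adjusted p = 0.0239). Pfkfb4 was lower, at -0.53 (SE 0.14, adjusted p = 0.0384). Adding the replicate block gave 14 called members among 16.7% of genes. The 7 above were among them, and the others were Kdm3a (0.59), Slc2a1 (0.47) and Hif1a (0.43) as higher and Pgk1 (-0.62), Hk3 (-0.59), Eno1 (-0.44) and Pkm (-0.42) as lower.

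These calls rested on a few samples. Without lung replicate 4, 0 of the members were called, and the differences of Egln3, P4ha1, Ero1l, Bnip3, Mif and Pfkp were 0.68, 0.44, 0.86, 0.59, 0.50 and 0.64 (the lowest adjusted p was 0.127). Without lung replicate 1, 1 member was called, and without bone replicate 3 or liver replicate 4, 2 were. Without brain replicate 4, 3 members were called, and without bone replicate 4 or lung replicate 3, 4 were. The clusters behind the class also differed: 80.4% of biotin-negative bone neutrophils lay in cluster 12 (led by Cxcr2 and Retnlg), while lung had 70.1% in cluster 13 (G0s2, Acod1, Wfdc17) and 24.3% in cluster 14 (Ccrl2, Gadd45b, Hcar2). Within cluster 13, 0 of 27 members were called. Egln3 and P4ha1 were not tested there. Mif, at -0.03, was the only tested one of the 7 to change sign, but Bnip3 and Ero1l fell to 0.01 each and Pfkp to 0.23. Pfkfb4 stayed negative. This cluster held 194 biotin-negative neutrophils in bone, against 2874 in lung. Cluster 14 of lung replicate 4 held glycolysis shares of 0.857% in the biotin-negative and 1.16% in the biotin-positive sample, where the other 14 samples lay between 0.277 and 0.519%.

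**Figure D4:**
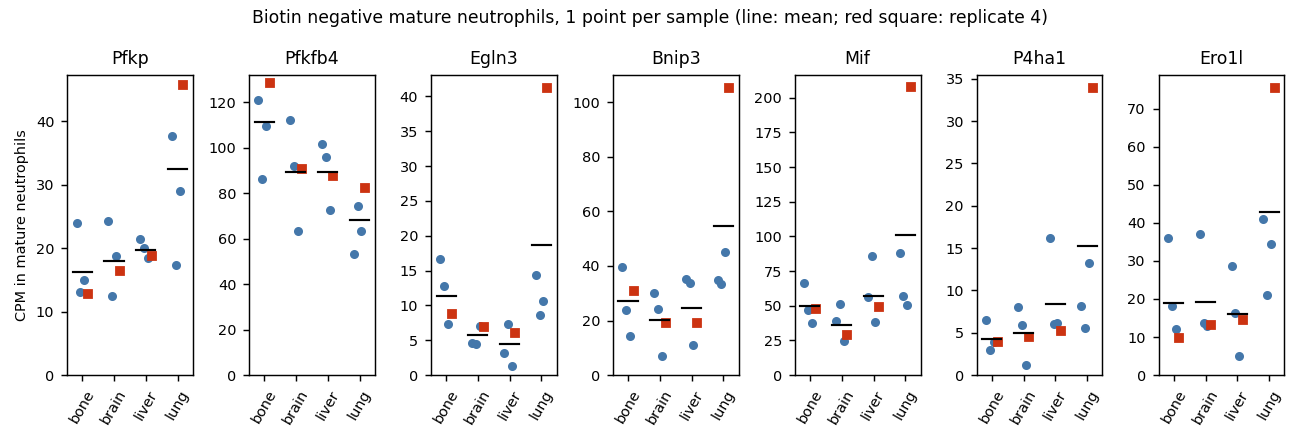
CPM of the 7 members called in lung, in mature neutrophils of the 16 biotin-negative samples by tissue. Points are samples, the line is the mean of 4, and the red square is replicate 4, which in lung is the highest sample for Egln3 (41.1 CPM) and P4ha1 (33.9 CPM).

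Genes of other lists moved beside these. Of 17 other hypoxia genes, Hilpda rose by 1.93 (SE 0.34, adjusted p = 0.00737) and Vegfa, the vascular growth factor, by 1.35 (adjusted p = 0.0351). Of 7 pentose phosphate genes, 2 were lower: Tkt by -0.84 and G6pdx by -0.79 on the log2 scale. Of 17 genes that tissue dissociation induces, 6 were higher in lung (median 0.75), among them Fosb and Atf3, and 8 were lower in bone (median -1.36). The summed share of that list was 1.13 to 2.38% in lung, 1.12 to 2.54% in liver and 0.422 to 0.911% in bone neutrophils. Its part in the member differences was not tested.

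For the bone neutrophils, Slc2a1 was at 110.2, 81.1, 74.0 and 106 CPM in lung, 113, 107, 84.9 and 76.2 CPM in liver, 57.8, 89.7, 47.0 and 59.1 CPM in brain and 62.7, 55.6, 36.9 and 35.6 CPM in bone. The bone samples sat among the lowest of the 16, overlapping those of brain. The log2 difference was -0.89 (SE 0.17, adjusted p = 0.00865) by edgeR. The blocked fit called 4 members in bone among 11.5% of genes: Slc2a1 (-0.90), Pfkp (-0.61) and Hif1a (-0.37) were lower and Pfkfb4 (0.38) was higher. Without the block, the call of Slc2a1 was lost without bone replicate 3 or 4, 2 members were called without lung replicate 2, and within cluster 13 the difference was -0.28 (adjusted p = 0.783).

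The promoters of Egln3, Bnip3, P4ha1, Ero1l, Pfkp and Mif are shown because these are the 6 members that were higher both in lung neutrophils and, as given below, in biotin-positive cells of the IIA pool, and because HIF acts through a core motif whose presence can be read in them. The sequences are the 250 bases before the start site, from RefSeq on build GRCm38.p6, written 5' to 3' on the gene's strand. Capitals mark the letters ACGTG or GCGTG, searched on both strands, where CACGT or CACGC is the match on the opposite strand and neighbouring matches can overlap.
Egln3: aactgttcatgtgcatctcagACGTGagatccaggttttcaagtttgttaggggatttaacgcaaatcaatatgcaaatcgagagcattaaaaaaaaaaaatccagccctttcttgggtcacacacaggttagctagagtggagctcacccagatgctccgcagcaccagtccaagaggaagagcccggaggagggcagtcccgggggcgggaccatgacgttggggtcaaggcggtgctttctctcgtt
Bnip3: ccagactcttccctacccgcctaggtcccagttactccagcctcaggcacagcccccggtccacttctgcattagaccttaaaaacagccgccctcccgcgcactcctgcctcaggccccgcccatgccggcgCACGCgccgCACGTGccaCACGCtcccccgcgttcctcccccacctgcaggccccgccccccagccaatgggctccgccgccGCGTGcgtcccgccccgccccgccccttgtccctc
P4ha1: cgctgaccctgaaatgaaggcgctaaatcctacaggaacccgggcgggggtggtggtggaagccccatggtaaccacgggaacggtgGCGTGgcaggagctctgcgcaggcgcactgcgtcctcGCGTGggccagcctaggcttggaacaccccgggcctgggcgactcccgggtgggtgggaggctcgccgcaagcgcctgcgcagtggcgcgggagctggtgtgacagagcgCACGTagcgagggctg
Ero1l: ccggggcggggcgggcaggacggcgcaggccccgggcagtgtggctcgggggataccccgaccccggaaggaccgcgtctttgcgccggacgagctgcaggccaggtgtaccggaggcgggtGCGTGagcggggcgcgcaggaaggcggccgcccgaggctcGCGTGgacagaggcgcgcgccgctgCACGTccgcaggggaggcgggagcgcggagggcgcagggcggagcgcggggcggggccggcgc
Pfkp: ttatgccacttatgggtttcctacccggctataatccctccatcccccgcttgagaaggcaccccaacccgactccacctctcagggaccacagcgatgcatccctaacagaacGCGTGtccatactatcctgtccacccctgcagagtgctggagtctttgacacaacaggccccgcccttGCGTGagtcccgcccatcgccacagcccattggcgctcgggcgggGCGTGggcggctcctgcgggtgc
Mif: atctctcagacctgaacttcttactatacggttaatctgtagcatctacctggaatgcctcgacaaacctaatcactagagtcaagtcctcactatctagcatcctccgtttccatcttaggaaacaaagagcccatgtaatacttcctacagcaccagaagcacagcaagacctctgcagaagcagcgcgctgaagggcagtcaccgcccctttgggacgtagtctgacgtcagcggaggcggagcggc
Egln3 lies at chr12:54203875-54204124 on the minus strand and held 1 match, at position -229 from the start. Bnip3 lies at chr7:138909507-138909756 on the minus strand with 5 matches, P4ha1 at chr10:59323046-59323295 on the plus strand with 3, and Ero1l (RefSeq symbol Ero1a) at chr14:45318573-45318822 on the minus strand with 3. Pfkp lies at chr13:6648772-6649021 on the minus strand with 3, and Mif at chr10:75860278-75860527 on the minus strand with 0. Of the 35 members, 31 had an entry in the table, and 28 of these held at least 1 match. Among their 44 entries 34 did (77.3%), against 38.6% of all 32851 entries, while 3 or more matches occurred in 6.58% of all entries. These shares were not matched for GC content, and members with several entries count more than once. The members were listed by name as genes of glycolysis and of hypoxia signalling, so their share of matches describes the list and is no result of these data. A match is a description of letters, not of a bound site or a cause.

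Classical and nonclassical monocytes, tested as 1 class, gave 0 called members of 33 in each tissue, where 2.41% of 9904 genes were called for lung, 0.0% for liver, 0.0% for brain and 3.4% for bone. At an unadjusted p under 0.05 there were 9, 3, 3 and 2 members, beside 1819, 720, 404 and 1576 of the 9904 genes. DESeq2 called 1 in lung, P4ha1, and 0 in the other tissues. Without bone replicate 1, edgeR called 1 member in lung. The blocked fit called 5 monocyte members in lung among 11.9% of genes: Pfkfb3 (0.78) and P4ha1 (0.66) were higher, and Slc2a3 (-0.80), Pfkl (-0.39) and Gapdh (-0.19) lower. In bone, 2 were called among 10.4% of genes, both lower: Pfkfb3 (-0.61) and Bnip3 (-0.58). Liver and brain gave 0 calls with the block as well. Of 19 other hypoxia genes, 3 rose in lung monocytes: Vegfa (2.14, adjusted p = 0.0407), Hilpda (1.79, adjusted p = 0.0412) and Bhlhe40 (1.47, adjusted p = 0.0407), all by edgeR.

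Cluster 19 was compared between sorts in lung, a comparison added after the levels had been seen. It called 0 of 31 members, against 0.316% of 5378 genes, with 3 at an unadjusted p under 0.05 (699 of all genes) and 0 by DESeq2. The median difference was -0.51, and 1 of 31 members was positive. Glycolysis shares were 0.912, 0.6245, 0.826 and 1.496% in biotin-negative samples and 0.802, 0.484, 0.706 and 0.983% in biotin-positive samples, which overlap, while the biotin-positive sample was the lower in each of the 4 pairs. With the replicate block, 9 members were called, all lower, among 6.6% of genes. Bnip3 was at 283, 118, 282 and 438 CPM in the biotin-negative samples and 213, 51.4, 215 and 205 CPM in the biotin-positive samples. Tpi1 was at 636, 359, 570.1 and 1014 CPM in the biotin-negative samples and 511, 168, 384 and 598 CPM in the biotin-positive samples. Slc16a3 was at 321, 121, 170.5 and 250.4 CPM in the biotin-negative samples and 192, 44.5, 175 and 166 CPM in the biotin-positive samples. Bnip3 and Tpi1 were thus lower in the biotin-positive sample of every pair, and Slc16a3 in 3 of 4. The blocked log2 differences were -0.86 (SE 0.18, adjusted p = 0.0108), -0.76 (SE 0.15, adjusted p = 0.00695) and -0.79 (SE 0.20, adjusted p = 0.0327) in that order. Higd1a, Pfkp, Hif1a, Eno1, Pkm and Gapdh were the others called, from -0.74 to -0.45. Leaving out both lung samples of replicate 4 left 1 blocked call, Hif1a, and leaving out the others in turn left 3 to 10. Without the block and without biotin-negative replicate 4, the median was -0.12, with 9 positive.

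In the IIA bone pool, in sums over all cells, 15 of 33 tested members were called, 12 higher and 3 lower in biotin-positive samples, where 50.1% of 12625 genes were called, 26.9% higher and 23.1% lower. The share of members called, 15 of 33, was thus close to that over all genes. The member median was 0.38, against 0.08 over all genes, and 27 of 33 were positive. Macrophages were 15.8, 52.4, 38.5, 8.03, 4.86 and 5.02% of the cells in the biotin-positive samples and 0.09 to 1.63% in the biotin-negative ones. Granulocyte precursors were 3.92 to 49.1% and 0.85 to 3.06%.

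Among the transporters, Slc2a3 ran from 137 to 174 CPM (median 158) in the 6 biotin-negative samples and from 31.5 to 79.1 CPM (median 64.0) in the 6 biotin-positive samples. The groups did not overlap, and Slc2a3 fell by 1.61 on the log2 scale (SE 0.18, adjusted p = 2.65e-05, edgeR). Immature neutrophils were 29.5 to 55.8% of biotin-negative and 5.36 to 21.4% of biotin-positive cells, and mature neutrophils 23.1% and 24.5% at the median. Within mature neutrophils Slc2a3 differed by 0.21 (adjusted p = 0.381, edgeR). It was lower within immature neutrophils (-0.39) and granulocyte precursors (-1.15), as given below. The part of the cell mix in the Slc2a3 difference was not tested. Slc16a3 ran from 73.7 to 141 CPM (median 111) in the 6 biotin-negative samples and from 48.8 to 227 CPM (median 109.7) in the 6 biotin-positive samples, with overlap and no call. Of the 10 upper enzymes, 4 were called. Tpi1 (1.10, adjusted p = 0.000419), Pfkl (0.79, adjusted p = 0.0049) and Pfkp (0.47, adjusted p = 0.0385) were higher, and Pfkfb4 was lower (-1.26, adjusted p = 4.45e-06). Gpi1 ran from 402 to 504 CPM (median 460.1) in the 6 biotin-negative samples and from 455 to 640.4 CPM (median 549) in the 6 biotin-positive samples and was not called. Of the 7 lower enzymes, Pdk1 (1.17, adjusted p = 0.000338), Pgam1 (0.56, adjusted p = 0.00088) and Eno1 (0.40, adjusted p = 0.0149) rose. Gapdh ran from 765 to 853 CPM (median 808) in the 6 biotin-negative samples and from 824 to 1739.5 CPM (median 988) in the 6 biotin-positive samples, overlapping and without a call.

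Of the 3 oxygen-sensing genes tested, Egln3 rose, by 1.15 (SE 0.26, adjusted p = 0.00334). Hif1a ran from 56.9 to 104 CPM (median 68.5) in the 6 biotin-negative samples and from 63.7 to 201 CPM (median 90.2) in the 6 biotin-positive samples, with overlap. Of the 10 hypoxia targets tested, 6 were called. Bnip3, the mitophagy receptor, ran from 10.5 to 26.4 CPM (median 12.4) in the 6 biotin-negative samples and from 10.4 to 208 CPM (median 30.4) in the 6 biotin-positive samples. These overlapped, with a wide spread in the biotin-positive samples, and the log2 difference was 2.06 (SE 0.73, adjusted p = 0.0327). P4ha1 ran from 12.1 to 20.7 CPM (median 15.3) in the 6 biotin-negative samples and from 20.7 to 95.3 CPM (median 35.6) in the 6 biotin-positive samples, a log2 difference of 1.43 (SE 0.37, adjusted p = 0.00649), and the highest biotin-negative sample met the lowest biotin-positive one. Mif ran from 186 to 254 CPM (median 231) in the 6 biotin-negative samples and from 482 to 868 CPM (median 675) in the 6 biotin-positive samples, with no overlap and a log2 difference of 1.32 (SE 0.15, adjusted p = 2.53e-05). Ero1l was higher by 0.65 (SE 0.14, adjusted p = 0.00238) and Higd1a by 0.57 (SE 0.20, adjusted p = 0.03). Bnip3l, the paralog of Bnip3, was lower, at -0.51 (SE 0.08, adjusted p = 0.000277). Without the macrophage class, 16 members were called, 14 of them among the 15. Bnip3 then stood at 0.80 (adjusted p = 0.162). With single samples left out in turn, the call of Pfkp was lost in 10 of 12 fits and those of Bnip3 and Higd1a in 7 of 12 each, and the other 12 calls were kept in every fit.

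Genes of other lists were counted against the same 50.1%. Of 24 other hypoxia genes, 13 were called and 10 rose, with Lox (a collagen cross-linking oxidase) at 5.40 and Hilpda at 2.77. Of 18 other glycolysis genes, 9 were called, 6 of them up. Of 8 pentose phosphate genes, 4 fell, among them G6pdx, the entry enzyme of that pathway (-1.19, adjusted p = 8.2e-05), and 1 rose. Of 17 dissociation genes, 5 were called: 3 rose, with Hspa1b at 1.34 and Hspa1a at 1.24, and 2 fell, with Ier2 at -1.35 (adjusted p = 2.86e-06).

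**Figure D5:**
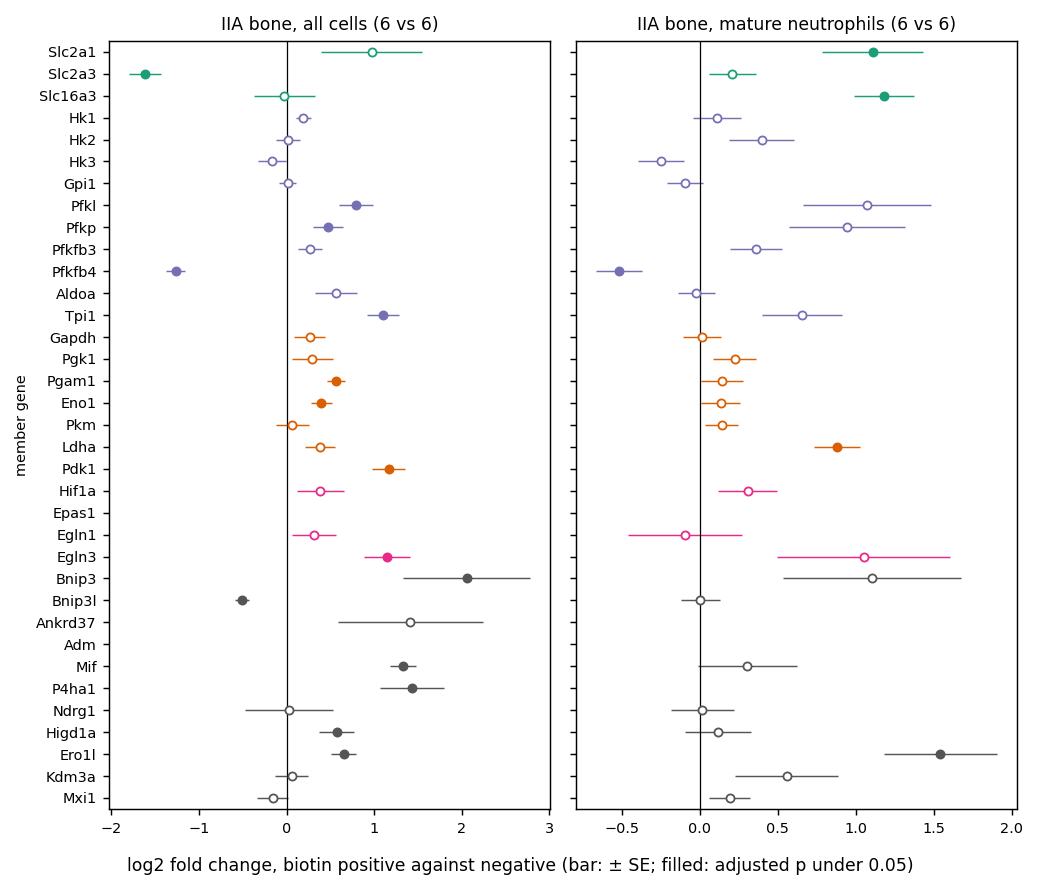
Log2 difference of biotin-positive against biotin-negative samples (6 against 6, standard error bars) for the members in the IIA bone pool, in sums over all cells and in mature neutrophils. Filled points passed an adjusted p of 0.05, which is 15 members in all cells and 5 in neutrophils.

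Within mature neutrophils of the IIA pool, 5 of 30 members were called, against 13.6% of 6007 genes (8.92% higher and 4.64% lower). Slc16a3, the lactate exporter, ran from 262 to 404 CPM (median 365) in the 6 biotin-negative samples and from 290.1 to 1036 CPM (median 883) in the 6 biotin-positive samples. Slc2a1, the glucose importer, ran from 22.03 to 52.2 CPM (median 27.6) in the 6 biotin-negative samples and from 24.7 to 126 CPM (median 55.0) in the 6 biotin-positive samples. Ero1l ran from 21.1 to 76.8 CPM (median 53.3) in the 6 biotin-negative samples and from 18.1 to 261 CPM (median 136) in the 6 biotin-positive samples. All 3 overlapped between sorts, the biotin-positive samples spreading more. The log2 differences were 1.18 (SE 0.19, adjusted p = 0.00142), 1.11 (SE 0.32, adjusted p = 0.0359) and 1.54 (SE 0.36, adjusted p = 0.0179) in that order, by edgeR's quasi-likelihood test. Ldha, which makes lactate, rose by 0.88 (SE 0.15, adjusted p = 0.00109), and Pfkfb4 was lower, at -0.52 (SE 0.15, adjusted p = 0.0234). The glycolysis share was 0.496 to 0.520% in biotin-negative and 0.564 to 0.657% in biotin-positive samples, without overlap.

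The clusters of the class differed between the sorts. Cluster 5 held 69.2% of the biotin-negative neutrophils and 27.3% of the biotin-positive ones, of which 37.1% lay in cluster 6 and 24.7% in cluster 18. Cluster 5 was led by Cstdc4 and Retnlg, cluster 6 by Acod1 and Cxcl2, and cluster 18 by G0s2 and Tnfaip6. Within cluster 5 (2748 biotin-negative and 296 biotin-positive cells), 0 of 23 members were called. Ero1l was not tested there, and Pfkfb4, at 0.07, was the only tested one of the 5 to change sign. The other 3 were smaller within this cluster: Slc16a3 stood at 0.149, Ldha at 0.207 and Slc2a1 at 0.265. Without biotin-positive replicate 3, 2 members were called. With single samples left out in turn, the call of Slc2a1 was lost in 8 of 12 fits, that of Pfkfb4 in 3 and that of Ero1l in 1, while Slc16a3 and Ldha kept theirs. Slc2a1 also lost it when the cells were clustered with the members. Of 17 dissociation genes, 10 rose (median 1.14), their summed share being 0.296 to 0.458% in biotin-negative and 0.362 to 1.24% in biotin-positive samples, and its part in the result was not tested. Of 13 other hypoxia genes, 3 rose: Hilpda by 2.70, Bhlhe40 by 1.85 and Vegfa by 1.84.

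Earlier stages of the neutrophil line were compared after these results had been seen. In immature neutrophils 2 of 30 members were lower, against 9.65% of 8027 genes called and 4.26% lower. Slc2a3 ran from 180.1 to 209 CPM (median 201) in the 6 biotin-negative samples and from 97.0 to 222 CPM (median 181) in the 6 biotin-positive samples, with overlap and a log2 difference of -0.39 (SE 0.10, adjusted p = 0.0154). Gapdh ran from 757 to 845 CPM (median 807) in the 6 biotin-negative samples and from 682 to 825 CPM (median 736) in the 6 biotin-positive samples, also with overlap and a log2 difference of -0.25 (SE 0.07, adjusted p = 0.0244). In granulocyte precursors, 2 of 30 members were lower, against 9.8% of 7476 genes called and 6.3% lower. Slc2a3 ran from 5.18 to 34.6 CPM (median 19.9) in the 6 biotin-negative samples and from 9.62 to 15.6 CPM (median 11.6) in the 5 biotin-positive samples, and Pfkfb4 from 33.6 to 66.1 CPM (median 53.6) in the 6 biotin-negative samples and from 34.9 to 50.3 CPM (median 39.0) in the 5 biotin-positive samples. Both overlapped, with log2 differences of -1.15 (SE 0.25, adjusted p = 0.00263) and -0.56 (SE 0.16, adjusted p = 0.021). The precursor values of Slc2a3 rested on 72 UMIs over the biotin-negative and 270 over the biotin-positive samples. Immature neutrophils gave 0 calls without biotin-positive replicate 1, and 1 without biotin-negative replicate 4, 5 or 6 or biotin-positive replicate 3 or 5. Precursors gave 0 calls without biotin-negative replicate 5, and 1 without biotin-negative replicate 1, 3 or 6 or biotin-positive replicate 5 or 6. Slc2a3 in precursors dropped below the count filter in 4 of these fits (biotin-negative replicates 1, 3, 5 and 6), and without the cells of highest doublet score 0 precursor members were called. A smaller precursor cluster was led by the heat shock genes Hspa1b and Hspa1a.

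Macrophages and monocytes of the IIA pool could not be fitted, since 7 samples held at least 20 cells of each, 1 of them biotin-negative for macrophages. Macrophage glycolysis shares were 1.201% in that biotin-negative sample (44 cells) and 0.729, 0.957, 0.855, 0.232, 0.741 and 0.555% in the biotin-positive samples. The lowest of these, replicate 4, held 20 cells, and erythroid markers made up 4.65% of its UMIs.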

How the data were processed

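Single-cell RNA-seq of 32 intracardiac samples and 12 hashtagged IIA samples was analysed from the deposited raw UMI counts, which the authors made with Cell Ranger on build mm10, per the file headers and the submitters' processing notes. Members and gene lists were chosen with earlier results of these data known. Cells with at least 500 UMIs, 200 genes and at most 15% mitochondrial UMIs were kept, and IIA cells needed 10 hashtag counts and a top hashtag 3 times the second. Hashtags were matched by number to the deposited table of hashtags and samples. Doublets were not removed, and leaving out the 5% of cells with the highest Scrublet scores was an alternative. Cells were clustered with scanpy 1.11.5 (2000 variable genes without the members, 30 components, Leiden resolution 1.0) and classes were named from 26 marker lists. Counts were summed per sample, with at least 20 cells for a class, and tested with edgeR 4.0.16 (quasi-likelihood, filterByExpr, TMM normalization, Benjamini-Hochberg over all genes tested), with DESeq2 1.42.0 as an alternative. On data simulated for the lung comparison of all cells, with 12177 genes, the test recovered 29 of 100 genes changed 2-fold and 100 of 100 changed 4-fold, with 5 false calls. Every simulated gene had the same spread beyond counting error, so recovery in the real data can differ. The SEs of the members in the real comparison ran from 0.154 to 0.919.

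In each comparison the called members were named, by rule up to 10 by size, and the 5 beyond these in all IIA cells and the 4 beyond them in the blocked fit of lung neutrophils across tissues were added to complete the lists after their values were seen. The 3 largest, and in sums over all cells the member of each role with most counts, are given with the values of every sample, or with the lowest, median and highest for the groups of 6. The replicate numbers come from the labels. The tag panels and barcodes of the deposited files tie the 8 intracardiac samples of a number together, so the numbers were taken to pair sorts and tissues there, and the fits without the block stayed the main ones. Same-numbered samples deviated together over genes in the sorts of bone (correlations of 0.445 to 0.772), brain (0.326 to 0.677) and liver (0.329 to 0.686) and less evenly in lung (-0.217 to 0.585). In lung, 2 of 4 samples correlated best with their own number, a limit on its blocked p-values. Between biotin-negative samples of different tissues the correlations ran from -0.045 to 0.758. The IIA numbers (0.096 to 0.624) were not taken to pair samples. Depth per sample is given with the results, and counting error is larger in samples with few cells.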

Additional observations from a re-analysis of the deposited data

Results flagged for a closer look

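Of 128 groups of 4 to 10 samples tested, 5 (3.91%) held a sample far from the rest, by Dixon's test at the 95% level, and chance alone gives about 1 in 20. Gapdh over all cells was highest in biotin-negative lung replicate 4, at 1315 CPM against a group median of 821, and lowest in biotin-positive liver replicate 2, at 546 CPM against 1076. In biotin-negative mature neutrophils, Ero1l was highest in brain replicate 1, at 37.0 CPM against a median of 13.5. P4ha1 was highest in liver replicate 1, at 16.2 CPM against 6.08. The glycolysis share of mature neutrophils was highest in biotin-negative IIA replicate 6, at 0.520% against 0.501%.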

How the results depend on the processing

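With DESeq2, 5 members were called in brain, 1 in liver and 1 in lung over all cells, 1 in lung monocytes and 1 in the tissue interaction. These counts stand without the share of all genes that DESeq2 called. With the replicate block, calls were 2 in brain, 2 in lung, 8 in lung neutrophils between sorts, 8 in IIA neutrophils, 4 and 14 in biotin-negative bone and lung neutrophils, 2 and 5 in bone and lung monocytes, 1 in the interaction, 9 in lung cluster 19 and 1 in IIA precursors. In these blocked fits, 1064 of 6007 genes were called in IIA neutrophils and 679 of 7476 in IIA precursors. The block gave 14 calls in all IIA cells, among 6150 of 12625 genes, and Bnip3 was lost. Of the IIA samples, 5 of 6 correlated best with their own number. Without the count filter, calls were 2 in lung neutrophils across tissues, 1 in cluster 19, 5 in immature neutrophils and 1 in precursors. Without the highest Scrublet scores, 2 were called in lung over all cells and 0 in precursors, and with a hashtag ratio of 5, 4 in precursors. Clustering with the members gave 3 and 4 calls in biotin-negative bone and lung neutrophils. Alternatives chosen after seeing the data gave 0 calls in bone and 0 in lung neutrophils of cluster 13. In lung, Ero1l stood at 0.01 and Mif at -0.034 within that cluster. They also gave 0 calls in IIA neutrophils of cluster 5, with Slc16a3 at 0.149 and Pfkfb4 at 0.068. Egln3 and P4ha1 were not tested in cluster 13, and Ero1l was not tested in cluster 5 of the IIA pool. With the replicate block and without both samples of replicates 1, 2, 3 and 4 in turn, calls were 6, 7, 9 and 2 in lung neutrophils and 5, 3, 10 and 1 in cluster 19. The cause was not tested. Leaving out single samples gave 12 to 17 calls in all IIA cells, 2 to 7 in IIA neutrophils, 0 to 9 in lung and 0 to 2 in bone neutrophils across tissues, 0 to 2 in brain, 0 to 1 in lung, lung monocytes and the interaction, and 0 to 3 in precursors and immature neutrophils. Samples of few cells limit the tests of rare members such as Adm.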

Other observations

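Smaller groups of cells in the IIA pool held the highest medians of other members, given as levels with no test. Stromal cells, led by Col3a1, Sparc and Col1a1 (104 cells in 3 samples), were highest for P4ha1 at 126 CPM (99.9 to 188), with macrophages next at 120.1 CPM, and for Ndrg1, Higd1a, Epas1 and Adm. Cluster 15, unnamed and led by Cacnb2, Gria3 and St7, was highest for Pfkfb3 at 477 CPM (218 to 540.4 over 5 samples) and for Ero1l at 404 CPM (265 to 574). Its Gapdh median of 277 CPM was the lowest of the 14 groups. Cluster 9, led by Gria3, Srm and C1qbp, held the highest Mif median, 1242 CPM over 3 samples, followed by macrophages at 1038 CPM.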
